A study of Mus musculus with 9 samples.

Results

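The genes described here encode granule proteins and surface receptors of eosinophils, the granulocytes of parasite defence and allergy. They are Prg2, Prg3, Epx, Siglecf, Il5ra and Ccr3. All 6 listed genes had a probe set in the deposited table, out of 17731 genes with a probe set of a single gene symbol. Probe sets were to be chosen by their mean level over all 9 arrays, the brightest standing for its gene, but each of the 6 genes had 1, so measured values decided nothing at that step. The genes were listed with earlier results of these arrays known, among them the lower Prg2 level in IDH1mut than in CTL.

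The study measured RNA of green fluorescent cells sorted from mouse bone marrow 4 weeks after transplantation, on 9 Affymetrix arrays. IDH1mut cells (3 arrays) carried pSF91-IDH1mut-IRES-GFP, IDH1wt cells (3 arrays) pSF91-IDH1wt-IRES-EGFP and CTL cells (3 arrays) the EGFP vector with no IDH1 insert. All 3 groups share the rest: marrow cells of C57BL6 mice immortalised with HoxA9, a leukaemia-associated transcription factor, infected with a retrovirus and placed in irradiated hosts of the same strain. IDH1 is a metabolic enzyme of the cytosol that turns isocitrate into alpha-ketoglutarate. The labels name neither the IDH1 mutation nor the age of the mice, and do not say whether the replicates are separate mice or separate infections, so p-values measure only the spread between these arrays. The vectors integrate into the genome, and integration sites were not analysed here.

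Eosinophils arise in the marrow from GATA-dependent myeloid progenitors under interleukin 5. Their large granules hold a crystalline core of major basic protein, the product of Prg2, with its homologue from Prg3 and eosinophil peroxidase from Epx in the same granules. Siglec-F is a sialic acid-binding inhibitory receptor that marks mouse eosinophils, IL-5 receptor alpha gives the lineage its cytokine response, and CCR3 is the receptor for eotaxins that guides the cells into tissue. Granule protein genes are transcribed mainly in immature eosinophils, before the granules fill.

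Of the 6 genes, 4 were lower in IDH1mut than in CTL, namely Prg2, Prg3, Epx and Siglecf, by 1.82-fold to 4.17-fold, in a comparison in which 20.7% of all genes passed the test. The same 4 were lower in IDH1mut than in IDH1wt, where 13.3% of all genes passed. Ccr3 was slightly higher in IDH1mut than in CTL, at the dim end of the scale. Il5ra, with values around or below the array medians, did not pass in any comparison. No member passed in IDH1wt against CTL, where the share of all genes was 2.33%.

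Promoter sequence was at hand for 5 of the 6 genes, and is shown for the 3 of them that fell and for Il5ra, which did not pass, so that genes of one lineage can be compared. Each line gives the 250 bases before the transcription start, read on the gene's strand from RefSeq (GRCm38.p6), with the letters GATAA, or TTATC where they lie on the other strand, in capitals. GATAA is the core bound by GATA factors, which drive eosinophil development. The windows are chr2:84987965-84988214 (plus strand) for Prg3, chr11:87875537-87875786 (minus) for Epx, chr7:43351091-43351340 (plus) for Siglecf and chr6:106749038-106749287 (minus) for Il5ra.
Prg3: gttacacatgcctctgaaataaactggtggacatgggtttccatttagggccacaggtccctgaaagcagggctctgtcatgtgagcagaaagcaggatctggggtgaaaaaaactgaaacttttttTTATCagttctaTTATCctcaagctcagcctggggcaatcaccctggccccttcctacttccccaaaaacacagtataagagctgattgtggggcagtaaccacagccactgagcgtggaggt
Epx: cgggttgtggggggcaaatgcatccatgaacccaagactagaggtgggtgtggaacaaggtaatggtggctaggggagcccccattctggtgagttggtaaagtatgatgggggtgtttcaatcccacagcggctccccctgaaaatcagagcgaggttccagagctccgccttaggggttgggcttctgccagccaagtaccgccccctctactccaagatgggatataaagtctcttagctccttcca
Siglecf: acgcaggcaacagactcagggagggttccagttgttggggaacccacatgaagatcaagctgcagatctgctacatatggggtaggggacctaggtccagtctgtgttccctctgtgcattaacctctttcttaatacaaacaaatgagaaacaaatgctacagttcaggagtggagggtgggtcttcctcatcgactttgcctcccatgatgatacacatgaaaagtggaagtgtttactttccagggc
Il5ra: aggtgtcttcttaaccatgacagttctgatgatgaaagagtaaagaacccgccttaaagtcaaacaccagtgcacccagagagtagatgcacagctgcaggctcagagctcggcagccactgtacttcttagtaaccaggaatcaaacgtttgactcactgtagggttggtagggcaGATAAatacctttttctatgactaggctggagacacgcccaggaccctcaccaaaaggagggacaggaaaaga
The Prg3 window held GATAA 2 times, at -123 to -119 and -111 to -107 from the start, both on the other strand and 7 bases apart. Il5ra held it once, at -73 to -69, and Epx and Siglecf not at all in these windows. With Ccr3 (-29 to -25), 3 of 5 genes had it, against 22.6% of 32851 RefSeq promoter windows of the same length. GAGGAA, a core of PU.1 sites, stood in the Siglecf window at -65 to -60 and in that of Ccr3 at -181 to -176, thus in 2 of 5 genes against 23.3% of all windows. TTGCNNAA, a C/EBP-like core, was in 0 of 5 against 9.6%. Both strands were searched, and no match of 1 motif overlapped one of another.

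All levels below are log2 expression values of 1 probe set as deposited, so 1 unit is a doubling, and differences are taken between groups of arrays for the same probe set. A percentile places a probe set on the scale of the arrays and does not rank the amounts of different transcripts. Tests are moderated limma contrasts from 1 fit to all 17731 genes, two-sided, with Benjamini-Hochberg adjustment over all genes and a threshold of 0.05. Differences are given ± the moderated standard error (SE), 3 arrays against 3. In IDH1mut against CTL 20.7% of all genes passed this threshold (10.6% lower and 10.1% higher). Of the 6 members, 4 fell, 1 rose and 1 did not pass. The arrays of 5 members did not overlap between IDH1mut and CTL, 4 lower and 1 higher, against 37.8% of all genes in either direction. The members' median difference was -1.04, against -0.041 over all genes. Since the genes were listed with results known, no test was made over the 6 together.

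**Figure D1:**
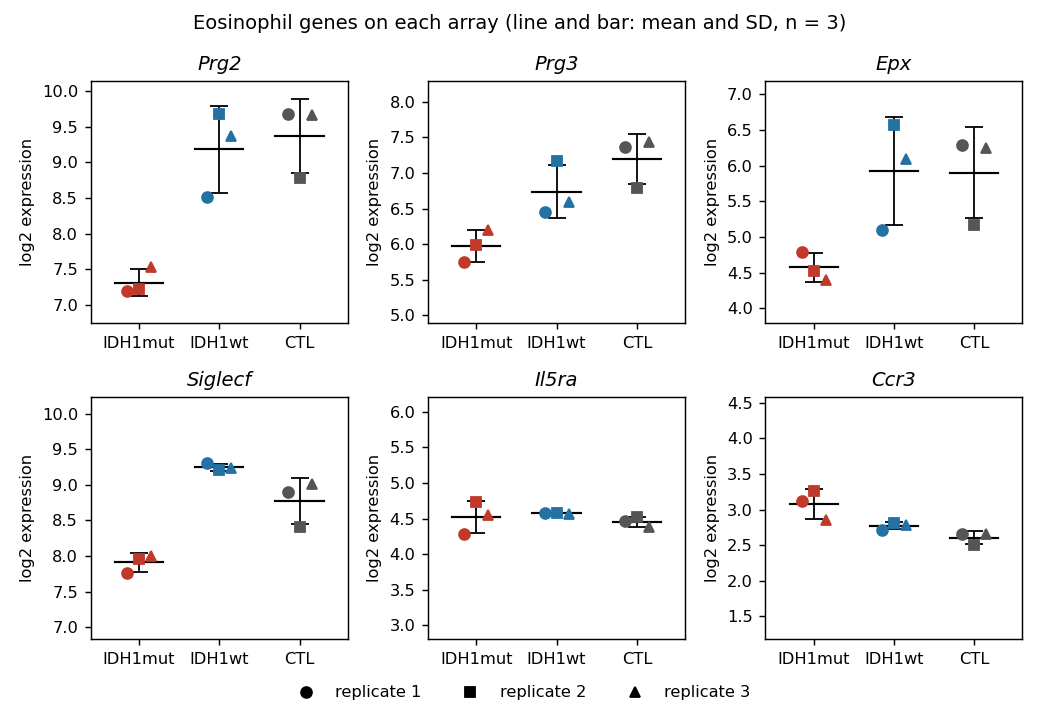
Log2 expression of the 6 genes on each array, by group, with the group mean and SD (n = 3). Each panel spans the same number of log2 units. The IDH1mut arrays lie below all others for Prg2, Prg3, Epx and Siglecf, overlap both other groups for Il5ra, and lie above them for Ccr3.

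Prg2, the major basic protein gene, read 7.20, 7.22 and 7.53 on the IDH1mut arrays, 8.51, 9.68 and 9.36 on the IDH1wt arrays and 9.68, 8.78 and 9.66 on the CTL arrays. The IDH1mut arrays were the lowest 3 and lay close together, whereas the other groups overlapped and each held 1 array well below its other 2. The group means were 7.31 ± 0.18 (SD, n = 3) in IDH1mut, 9.18 ± 0.61 in IDH1wt and 9.37 ± 0.52 in CTL. Prg2 was 4.17-fold lower in IDH1mut than in CTL (-2.06 ± 0.29), which is given as a description because it was known when the genes were listed. It stood 13th among all genes ordered from the lowest difference upwards. Against IDH1wt it was 3.66-fold lower in IDH1mut (-1.87 ± 0.29) and stood 10th. IDH1mut replicate 3, the highest of its group, was still 1.25 log2 units below the lowest CTL array and 0.98 below the lowest IDH1wt array. In IDH1wt against CTL the difference was -0.19 ± 0.29 (95% interval -0.83 to 0.45; adjusted p = 0.798), so a modest change in either direction was within the interval.

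Prg3 encodes the homologue of major basic protein and lies next to Prg2 on chromosome 2, with no other protein-coding gene of the RefSeq table between them. Its levels were 5.75, 5.98 and 6.20 in IDH1mut, 6.46, 7.16 and 6.59 in IDH1wt and 7.37, 6.79 and 7.43 in CTL. The IDH1mut arrays were again the lowest 3, and the nearest IDH1wt array was 0.26 above them. Prg3 fell 2.32-fold in IDH1mut against CTL (-1.22 ± 0.21; adjusted p = 0.00198). Against IDH1wt it fell 1.69-fold (-0.76 ± 0.21; adjusted p = 0.0347), a call that was lost without IDH1wt replicate 2 (-0.54; adjusted p = 0.101) and without IDH1wt replicate 3 or IDH1mut replicate 1 or 2 (adjusted p from 0.0628 to 0.106), and without moderation (0.144). IDH1wt cells had a mean between the other groups, 6.73 ± 0.37 against 7.19 ± 0.35 in CTL, and that difference did not pass (-0.46 ± 0.21, 95% interval -0.92 to -0.0015; adjusted p = 0.293).

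Epx, which encodes the heme peroxidase of the granule matrix, read 4.79, 4.53 and 4.40 in IDH1mut, 5.09, 6.58 and 6.10 in IDH1wt and 6.29, 5.17 and 6.25 in CTL. IDH1wt replicate 1 and CTL replicate 2 were the low arrays of their groups, 0.30 and 0.37 above the highest IDH1mut array. These low arrays gave Epx the widest spread of the 6 genes, with an SD of 0.76 in IDH1wt and 0.64 in CTL, against 0.20 in IDH1mut. The IDH1mut values lay around the array medians, which ran from 4.65 to 4.72. Presence of the transcript there was not tested, so the size of the folds is uncertain. Epx fell 2.51-fold in IDH1mut against CTL (-1.33 ± 0.36; adjusted p = 0.0212) and 2.55-fold against IDH1wt (-1.35 ± 0.36; adjusted p = 0.0287). The first call was lost without CTL replicate 1 or 3 or IDH1mut replicate 2 or 3 (adjusted p from 0.0567 to 0.0826), with an intensity trend (0.0718) and without moderation (0.119), and the other without IDH1wt replicate 2 or 3 or IDH1mut replicate 2 or 3 (adjusted p from 0.0760 to 0.0953), with an intensity trend (0.0879) and without moderation (0.146). In IDH1wt against CTL the means were 5.92 and 5.90, and the interval of the difference, -0.76 to 0.80, was too wide to tell a change in either direction (adjusted p = 0.984).

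Siglecf, the inhibitory lectin receptor, read 7.77, 7.96 and 8.01 in IDH1mut, 9.30, 9.21 and 9.23 in IDH1wt and 8.90, 8.40 and 9.02 in CTL. The 3 groups did not overlap, with IDH1mut lowest, CTL between and IDH1wt highest. Siglecf fell 1.82-fold in IDH1mut against CTL (-0.86 ± 0.14; adjusted p = 0.00180) and 2.52-fold against IDH1wt (-1.34 ± 0.14; adjusted p = 0.000311). Its higher level in IDH1wt than in CTL, 9.25 ± 0.05 against 8.77 ± 0.33, did not pass (0.47 ± 0.14, 95% interval 0.16 to 0.79; adjusted p = 0.125). Macrophages of some tissues also carry Siglec-F.

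Il5ra, the ligand-binding chain of the interleukin 5 receptor, read 4.29, 4.73 and 4.55 in IDH1mut, 4.58, 4.58 and 4.57 in IDH1wt and 4.46, 4.52 and 4.38 in CTL. The IDH1mut arrays spanned both other groups, and the mean over the 9 arrays stood at percentile 44.2 of all genes. The difference was 0.07 ± 0.11 in IDH1mut against CTL (95% interval -0.18 to 0.31; adjusted p = 0.746) and -0.06 ± 0.11 against IDH1wt (-0.30 to 0.19; adjusted p = 0.807). In IDH1wt against CTL it was 0.12 ± 0.11 (adjusted p = 0.634), although the arrays did not overlap. Neither IDH1mut interval reached a fall of the size seen for Prg2. The Il5ra values lay around or below the array medians of 4.65 to 4.72, where folds may be compressed and such a fall might not show. Whether the probe set reported the transcript was not tested, because the deposited values hold no detection calls.

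Ccr3, the eotaxin receptor, read 3.12, 3.26 and 2.85 in IDH1mut, 2.72, 2.81 and 2.79 in IDH1wt and 2.66, 2.50 and 2.65 in CTL. Its mean stood at percentile 11.9 of all genes, near the floor of the scale, where presence of the transcript was not tested and folds are compressed. It rose 1.38-fold in IDH1mut against CTL (0.47 ± 0.11; adjusted p = 0.0123), with no overlap of arrays. The call was lost without IDH1mut replicate 2 (adjusted p = 0.0501). The difference did not pass against IDH1wt (0.30 ± 0.11; adjusted p = 0.107) or in IDH1wt against CTL (0.17 ± 0.11; adjusted p = 0.489).

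**Figure D2:**
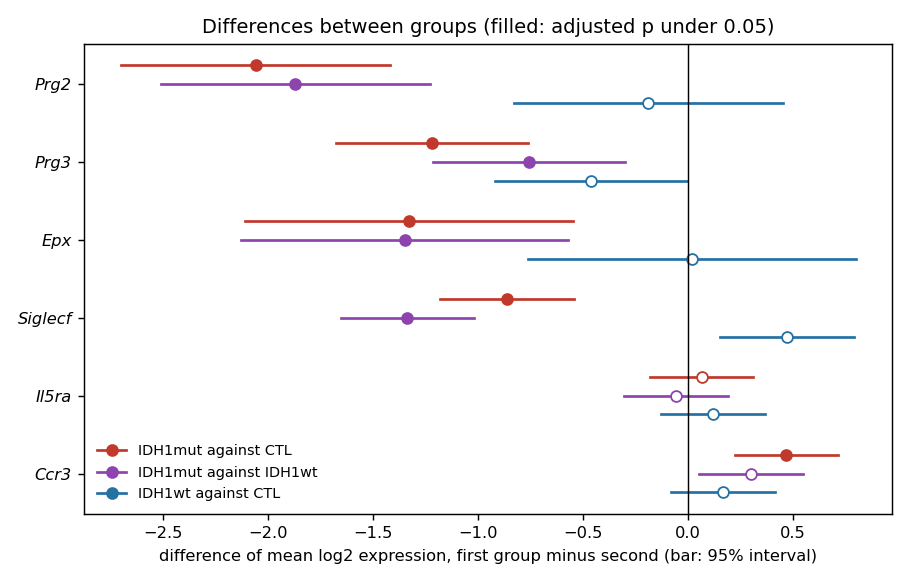
Differences of mean log2 expression for the 6 genes in the 3 comparisons, with 95% intervals from the limma fit and filled points where the adjusted p was under 0.05. For Prg2, Prg3, Epx and Siglecf both IDH1mut comparisons lie left of 0, whereas the IDH1wt against CTL points lie between -0.46 and 0.47 and are all open.

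In IDH1mut against IDH1wt, where 13.3% of all genes passed (6.78% lower and 6.54% higher), 4 of 6 members fell and 2 did not pass. The arrays of 4 members were lower in IDH1mut without overlap, against 15.5% of all genes (29.5% in either direction), and in IDH1mut against CTL likewise 4, against 21.5%. Both comparisons use the same 3 IDH1mut arrays, so they are no independent check of each other. In IDH1wt against CTL, where 2.33% of all genes passed (0.711% lower and 1.62% higher), 0 of 6 members passed in limma. At an unadjusted p under 0.05 there were 2, Prg3 lower and Siglecf higher, and a linear model without moderation called 0 as well. The arrays of 3 members, Siglecf, Il5ra and Ccr3, did not overlap and were higher in IDH1wt than in CTL, and 0 were lower without overlap, against 23.6% of all genes in either direction and 12.9% lower.

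The 4 genes that were lower in IDH1mut varied together within the other groups only in part. After each gene was centred on its mean over the 9 arrays, IDH1wt replicate 1 was low for Prg2 (-0.12), Epx (-0.37) and Prg3 (-0.18) and high for Siglecf (0.66). On CTL replicate 2 the values were 0.15 for Prg2, -0.30 for Epx, 0.15 for Prg3 and -0.24 for Siglecf, each the lowest of its gene in CTL. The granule protein genes therefore shared their low array in IDH1wt and in CTL, whereas Siglecf shared it in CTL alone. Without CTL replicate 2 the members called in IDH1mut against CTL were the same 5.

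**Figure D3:**
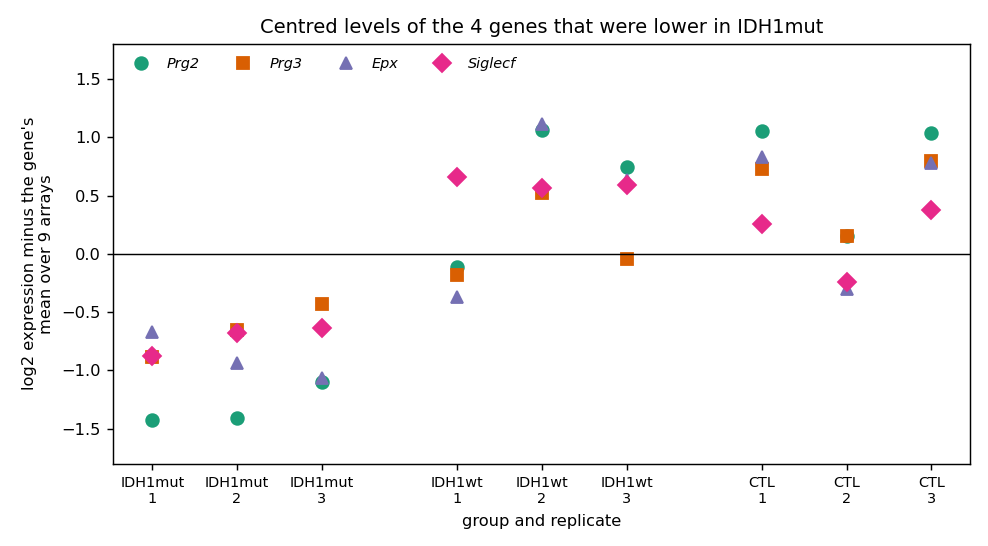
Log2 expression of Prg2, Prg3, Epx and Siglecf on each array after subtracting the gene's mean over the 9 arrays. All points of the 3 IDH1mut arrays lie between -1.43 and -0.43, and IDH1wt replicate 1 and CTL replicate 2 carry the lowest Prg2 and Epx points of their groups.

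To name the genes whose pattern was most like that of a member, centred profiles over the 9 arrays were compared by their root mean square difference, for the 4 members whose values spanned at least 1 log2 unit. Epx was the second nearest of all genes to Prg2 (0.36), and Prg2 the nearest to Epx, with Prg3 in place 4 (0.42). The other genes nearest to Prg2 were Eps8l1 (0.35), As3mt (0.39), an arsenic methyltransferase, Ms4a2 (0.46), the beta chain of the high-affinity IgE receptor of mast cells and basophils, and Mansc1 (0.46). Besides members, Cdk5rap1 (0.37), Garem1 (0.41) and Dennd1a (0.44) were nearest to Epx. For Prg3 they were Kalrn (0.17), Knl1 (0.18), Fam189b (0.20), Itgb5 (0.21) and 9130208D14Rik (0.21). Siglecf had other neighbours, namely Retsat (0.14), Epha7 (0.16), Kmo (0.20), Amot (0.20) and Ckb (0.21). A gene with a small range is near to many others by this measure: Prg2 was in place 3861 from Prg3 and in place 8302 from Siglecf. These distances describe 9 arrays in 3 groups and carry no test.

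Genes beside the members on their chromosomes were compared next, the nearest 2 measured genes on each side. Of 20 such neighbours that are not members, 2 rose and 1 fell in IDH1mut against CTL, a share no higher than the 20.7% of all genes. Those that rose were Ccr1 near Ccr3 and Zfp715 next to Siglecf (0.33 ± 0.10; adjusted p = 0.0312), and the one that fell was Dynll2 near Epx (-0.43 ± 0.10; adjusted p = 0.00955), all named after their values were seen. Around the Prg2 and Prg3 pair, Slc43a3 (0.08 ± 0.10; adjusted p = 0.668), Rtn4rl2 (0.10 ± 0.12; adjusted p = 0.628), P2rx3 (-0.11 ± 0.19; adjusted p = 0.747) and Tnks1bp1 (-0.14 ± 0.13; adjusted p = 0.485) did not pass. Epx lies in a cluster of peroxidase genes on chromosome 11. Its paralogue Lpo, lactoperoxidase, did not pass (0.03 ± 0.13; adjusted p = 0.909), and Mpo, the neutrophil peroxidase, fell, reading 12.69 ± 0.04 in IDH1mut and 13.31 ± 0.03 in CTL (-0.62 ± 0.08; adjusted p = 0.000486). The genes next to Ccr3, Ccr1l1 (-0.05 ± 0.18; adjusted p = 0.887) and the monocyte chemokine receptor gene Ccr2 (-0.35 ± 0.13; adjusted p = 0.0740), did not pass, although Ccr2 fell in IDH1mut against IDH1wt (-0.49 ± 0.13; adjusted p = 0.0281). Beyond Ccr1l1, Ccr1, a chemokine receptor of many myeloid cells, rose by 0.97 ± 0.11 (adjusted p = 0.000230). Next to Siglecf, Siglecg did not pass (-0.13 ± 0.10; adjusted p = 0.433). Of 7 other measured Siglec genes 0 fell and 3 rose in IDH1mut against CTL, where 10.6% of all genes fell and 10.1% rose. At an unadjusted p under 0.05 Siglech was lower (-0.30 ± 0.12; adjusted p = 0.0910, limma). Those that rose were Cd33 (0.91 ± 0.09), Siglece (0.56 ± 0.15) and Mag (0.41 ± 0.13). The call of Siglece was lost without CTL replicate 1 or 3 or IDH1mut replicate 2 or without moderation (adjusted p up to 0.0829), and that of Mag without any 1 of the 9 arrays (up to 0.174, without IDH1mut replicate 2).

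Genes of the pathway around the IL-5 receptor were called in both directions in IDH1mut against CTL. Of 14 measured genes 3 rose, 3 fell and 8 did not pass, where 10.1% of all genes rose and 10.6% fell. Csf2rb, the common beta chain that signals for IL-5 receptor alpha, did not pass (-0.06 ± 0.10; adjusted p = 0.743). Il3ra, the IL-3 receptor alpha chain, fell by 0.85 ± 0.13 (adjusted p = 0.00101), and Csf2rb2, the IL-3-specific beta chain, fell by 0.55 ± 0.11 (adjusted p = 0.00598). Probe sets may not separate Csf2rb from Csf2rb2, whose sequences are nearly the same, and both values are uncertain. Jak2, the kinase bound to the beta chain, rose by 0.57 ± 0.10 (adjusted p = 0.00178), and Csf2ra, the GM-CSF receptor alpha chain, by 0.50 ± 0.09 (adjusted p = 0.00258). Neither Jak2 (0.25 ± 0.10; adjusted p = 0.120) nor Csf2ra (0.02 ± 0.09; adjusted p = 0.929) passed in IDH1mut against IDH1wt. In IDH1mut against IDH1wt 2 of the 14 rose and 3 fell, where 6.54% of all genes rose and 6.78% fell. In IDH1wt against CTL 1 rose, Csf2ra, where 1.62% of all genes rose. Of 6 chemokines that bind CCR3, 0 passed in IDH1mut against CTL by limma and 1, Ccl5, had an unadjusted p under 0.05 (adjusted p = 0.0524), a gene singled out after its value was seen. Among the others were the eotaxins Ccl11 (-0.05 ± 0.12; adjusted p = 0.817) and Ccl24 (-0.31 ± 0.15; adjusted p = 0.175).

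Transcription factors with a known part in eosinophil development rose in 2 of 13 measured genes and fell in 3 in IDH1mut against CTL. Over all genes 10.1% rose and 10.6% fell there. Gata1, the GATA factor needed for the lineage and also the main erythroid factor, read 7.58, 7.85 and 7.57 in IDH1mut against 6.63, 6.40 and 6.42 in CTL. It rose by 1.19 ± 0.30 (adjusted p = 0.0158), opposite in direction to the granule genes in that comparison. The call was lost without CTL replicate 2 or 3 or IDH1mut replicate 2 (adjusted p up to 0.0539), with an intensity trend (0.0583) and without moderation (0.0989). On the IDH1wt arrays Gata1 read 6.08, 7.66 and 7.20. In IDH1mut against IDH1wt its difference did not pass (0.69 ± 0.30; adjusted p = 0.165), and the arrays overlapped. In IDH1mut against CTL Id2, which blocks DNA binding of helix-loop-helix proteins, rose by 2.38 ± 0.21 (adjusted p = 4.14e-05). Cebpa, which is needed for granulocyte progenitors, fell by 0.61 ± 0.09 (adjusted p = 0.00103), and Irf8, a factor of monocyte and granulocyte fate, fell by 0.77 ± 0.16 (adjusted p = 0.00633). Gata2 (-0.18 ± 0.17; adjusted p = 0.501) and Spi1, which encodes PU.1 (0.26 ± 0.09; adjusted p = 0.0686), did not pass.

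Other measured genes of mouse eosinophils did not pass as lower in either IDH1mut comparison. Of 9 measured genes 4 rose, 0 fell and 5 did not pass in IDH1mut against CTL, with a median of 0.42. Over all genes 10.1% rose and 10.6% fell there. The 4 were Ccr1, Pirb, an inhibitory immunoglobulin-like receptor (0.90 ± 0.09), Siglece and Cd24a (0.47 ± 0.10), all of which neutrophils or monocytes express too. Against IDH1wt 3 of the 9 rose in IDH1mut and 0 fell, where 6.54% of all genes rose and 6.78% fell. Alox15, singled out after its value was seen, was lower there at an unadjusted p under 0.05 (-0.71 ± 0.30; adjusted p = 0.157, limma). Its arrays overlapped. Mast cell and basophil genes, from the other GATA-dependent granulocytes, rose in 1 and fell in 2 of 13 in IDH1mut against CTL, where 20.7% of all genes passed. Ms4a2 read 7.38, 8.15 and 8.42 in IDH1mut against 9.30, 9.42 and 9.33 in CTL, and fell by 1.37 ± 0.30 (adjusted p = 0.00801), a call lost without moderation (adjusted p = 0.0705). Kit, the stem cell factor receptor, fell by 0.56 ± 0.11 (adjusted p = 0.00573) and Hdc, histidine decarboxylase, rose by 0.44 ± 0.09 (adjusted p = 0.00608). The basophil protease Mcpt8 (-0.19 ± 0.36; adjusted p = 0.776) and the mast cell carboxypeptidase Cpa3 (-0.48 ± 0.18; adjusted p = 0.0912) did not pass. In IDH1mut against IDH1wt, where 6.54% of all genes rose and 6.78% fell, 0 of the 13 rose and 3 fell. Those that fell were Mcpt8 (-1.49 ± 0.36; adjusted p = 0.0197), Ms4a2 (-1.30 ± 0.30; adjusted p = 0.0159) and Cd200r3, a basophil and mast cell receptor gene (-1.11 ± 0.31; adjusted p = 0.0365). Neither Kit (-0.28 ± 0.11; adjusted p = 0.136) nor Hdc (0.07 ± 0.09; adjusted p = 0.670) passed there. In IDH1wt against CTL, where 1.62% of all genes rose and 0.711% fell, 1 of the 13 rose and 0 fell. That gene was Cma1 (0.64 ± 0.14; adjusted p = 0.0418), at percentile 39.1 of all genes. Hdc did not pass there (0.36 ± 0.09; adjusted p = 0.0674). Mcpt8 averaged 9.35 in IDH1mut, 10.84 in IDH1wt and 9.54 in CTL, and its difference in IDH1wt against CTL did not pass (1.30 ± 0.36; adjusted p = 0.0913). Cd200r3 averaged 4.16 in IDH1mut, 5.27 in IDH1wt and 4.46 in CTL. It did not pass in IDH1mut against CTL (-0.30 ± 0.31; adjusted p = 0.563) or in IDH1wt against CTL (0.81 ± 0.31; adjusted p = 0.220). IDH1wt replicate 1 was the lowest of its group for Mcpt8 (9.79, 11.65 and 11.08), Cd200r3 (4.68, 6.01 and 5.12) and Ms4a2 (8.63, 9.93 and 9.29).

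Markers of other marrow cells also differed between IDH1mut and CTL. Some of them did not pass in IDH1mut against IDH1wt. Their part in the lower eosinophil genes was not tested. In IDH1mut against CTL 10.1% of all genes rose and 10.6% fell, and in IDH1mut against IDH1wt 6.54% rose and 6.78% fell. Primary granule genes fell in 7 of 7 measured in IDH1mut against CTL, namely Mpo, Elane, Prtn3, Ctsg, Ms4a3, Cst7 and Nkg7. Whether all 7 encode proteins of that granule was not checked. The mean log2 level of the list was at most 11.1 on the IDH1mut arrays. It ran from 11.8 to 12.0 on IDH1wt arrays and from 11.9 to 12.1 on CTL arrays. Late neutrophil genes rose in 6 of 10 (13.01 to 13.07 in IDH1mut, 12.52 to 12.57 in IDH1wt and 12.34 to 12.53 in CTL). Against IDH1wt the primary granule genes likewise fell in 7 of 7 and the late neutrophil genes rose in 6 of 10. Erythroid genes rose in 7 of 7 in IDH1mut against CTL and passed in 0 of 7 against IDH1wt by limma, and the list levels of those groups overlapped (7.49 to 7.81 in IDH1mut, 5.96 to 7.52 in IDH1wt and 6.21 to 6.33 in CTL). At an unadjusted p under 0.05 there were 7 of 7. B cell genes rose in 2 of 7 in IDH1mut against CTL and in 2 of 7 against IDH1wt (6.27 to 7.16 in IDH1mut, 4.80 to 6.07 in IDH1wt and 5.58 to 6.67 in CTL). Monocyte and macrophage genes rose in 2 and fell in 2 of 8 against CTL, and rose in 0 and fell in 4 against IDH1wt (8.03 to 8.43 in IDH1mut, 8.36 to 8.55 in IDH1wt and 8.29 to 8.42 in CTL). The mean level of the 6 members ran from 5.48 to 5.61 in IDH1mut, from 6.11 to 6.67 in IDH1wt and from 6.03 to 6.56 in CTL. Among the arrays with low granule genes, IDH1wt replicate 1 also had the lowest erythroid level (5.96) and B cell level (4.80) of all 9. The other such array, CTL replicate 2, had the highest B cell level of CTL (6.67) and an erythroid level (6.22) within the range of CTL. In sorted marrow, fewer eosinophil-lineage cells and less RNA per cell cannot be told apart. As a check of the sorted tissue, the 9 arrays ran from 9.68 to 10.36 for Itgam and from 9.92 to 10.37 for Spi1 (myeloid genes), and from 5.92 to 6.95 for the leukocyte gene Ptprc. Stromal and endothelial genes ran from 4.17 to 5.05 for Col1a1, 4.28 to 5.75 for Cxcl12, 3.01 to 4.03 for Cdh5 and 6.12 to 7.27 for Pecam1, which platelets and leukocytes also express. These levels belong to different probe sets and give no order between the genes, so they do not settle whether other cells were present.

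**Figure D4:**
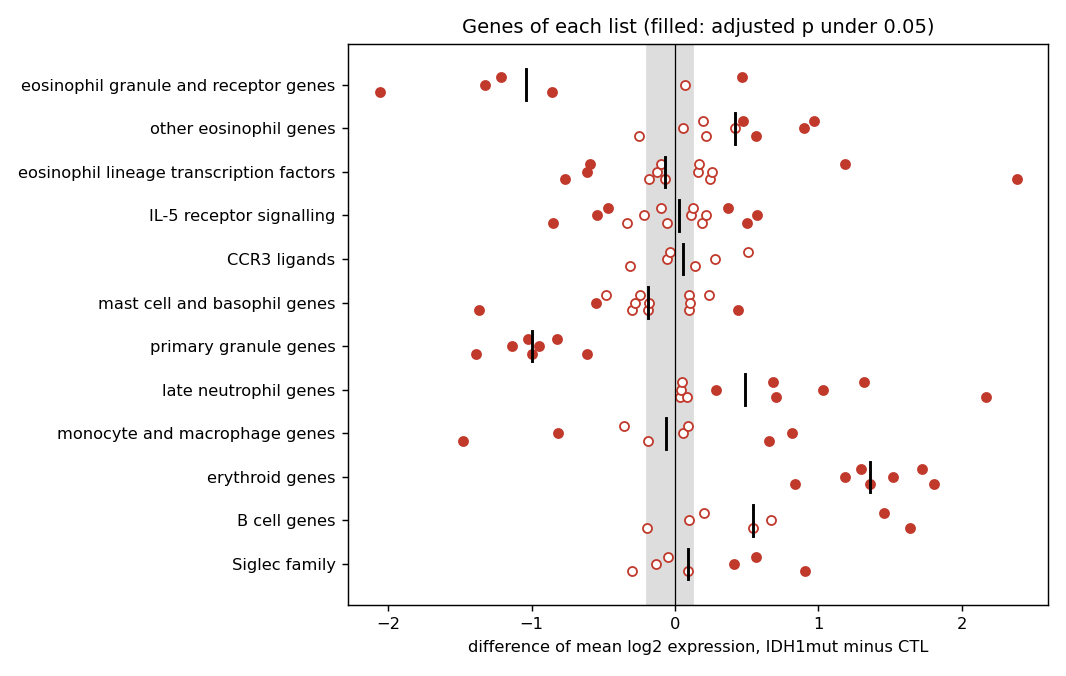
Difference of mean log2 expression, IDH1mut minus CTL, for the genes of each list, with a bar at the list median, filled points where the adjusted p was under 0.05 and a grey band from the lower to the upper quartile of all genes (-0.20 to 0.13). The eosinophil granule and receptor genes and the primary granule genes have medians near -1, and the erythroid genes lie right of 0.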

How the data were processed

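The authors deposited log2 expression values per probe set, 20877 probe sets on 9 arrays. RMA is the only step named, per the submitters' processing notes, and the log2 scale was read from the values. Array medians ran from 4.65 to 4.72, and correlations over genes from 0.992 to 0.997 within groups and from 0.982 to 0.992 between groups. Affymetrix platform annotation gave 1 gene symbol to 17815 probe sets, several to 244 and none to 2818. Only the first kind was used, with the brightest probe set per gene, which left 17731 genes. limma 3.58.1 in R 4.3.3 fitted a mean per group to all arrays, was tested on simulated data, and gave 3 contrasts. Arrays, at 3 per group, limit the precision.

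The members, the 12 other lists and the rule for named genes were chosen with earlier results of these data known. Named were the members, up to 4 passing genes of each list by size of difference, fixed genes of the pathway and the genes of most like pattern. Neutrophil, erythroid, B cell and monocyte lists are given as counts and mean levels. Values of single genes from them are given only where a gene was named for another reason, as for Mpo, Gata1 and Ccr2. Some lists share genes, and Gata1 is counted among both the transcription factors and the erythroid genes. Chromosomal neighbours and motifs were added after values were seen. Same-numbered arrays of different groups did not deviate together over all genes (correlations of -0.09 to 0.03). This cannot settle whether the numbers pair them, which the labels do not say, and the fit reported did not pair arrays.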

Additional observations from a re-analysis of the deposited data

How the results depend on the processing

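Each comparison was repeated under 19 other settings. In IDH1mut against CTL the number of members called was 5 and in the alternatives 3 to 5, with 3 without IDH1mut replicate 2 (range over arrays left out 3 to 5). In IDH1mut against IDH1wt it was 4, and 2 without moderation, 2 with the replicate block, and 2 to 4 over arrays left out, the 2 being Prg2 and Siglecf each time (without IDH1wt replicate 2 or 3 or IDH1mut replicate 2). With the replicate block, Prg3 (adjusted p = 0.0559) and Epx (adjusted p = 0.0542) missed the threshold there. In IDH1wt against CTL it was 0 throughout. Prg2 and Siglecf kept their direction and call in both IDH1mut comparisons under every setting run. For Prg2 against CTL this is a description, since its lower level was known when the genes were listed. Differences near 0 changed sign with an array left out. Over the 9 such fits, the IDH1mut against CTL difference ran from -0.037 to 0.18 for Il5ra, -0.30 to 0.022 for Gata2, -0.11 to 0.014 for Csf2rb, -0.064 to 0.15 for Lpo and -0.095 to 0.017 for Ccl11. In IDH1mut against IDH1wt Il5ra ran from -0.16 to 0.061, and in IDH1wt against CTL Prg2 from -0.49 to 0.15 and Epx from -0.35 to 0.43 (-0.078 with array weights). The cause was not tested. Without IDH1mut replicate 3 the IDH1mut against IDH1wt calls numbered 4 again, with Ccr3 in place of Epx. Over all genes, calls in IDH1wt against CTL, 414 in the fit reported, were 58 without moderation, 717 with an intensity trend, 1226 with array weights and 132 to 570 over arrays left out. In IDH1mut against CTL 3663 became 2370 without CTL replicate 1, and in IDH1mut against IDH1wt 2363 became 1475 without IDH1wt replicate 3 and 1528 without IDH1mut replicate 2. Il5ra and Ccr3 were not among the brighter genes, so they have no value under that filter. Without detection calls, low signal limits Ccr3. Presence of the Il5ra transcript, and of the Epx transcript in IDH1mut, was not tested.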

Other observations

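Eosinophil-associated ribonucleases are granule proteins too, and 3 of their genes were found under present symbols after the lists had been made. Ear3 read 5.48, 5.57 and 5.43 in IDH1mut, 5.33, 6.67 and 6.19 in IDH1wt and between 4.71 and 5.02 in CTL. It rose in IDH1wt against CTL (1.15 ± 0.26; adjusted p = 0.0414, limma), with IDH1wt replicates 2 and 3 highest, and did not pass in IDH1mut against CTL (0.58 ± 0.26; adjusted p = 0.139). Its probe set is of a kind that can match several near-identical copies, so its value is uncertain. Rnase2b read 4.15, 3.12 and 3.19 in IDH1mut against 2.81, 3.21 and 2.64 in CTL and did not pass (0.60 ± 0.24; adjusted p = 0.101), nor did Rnase2a (-0.07 ± 0.11; adjusted p = 0.728). In IDH1mut against IDH1wt Ear3 was lower but did not pass (-0.57 ± 0.26; adjusted p = 0.179). Rnase2b (0.44 ± 0.24; adjusted p = 0.278) and Rnase2a (0.08 ± 0.11; adjusted p = 0.712) did not pass there either. None of the 3 was lower in IDH1mut than in CTL or IDH1wt by the test.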
